A study of Drosophila melanogaster with 9 samples.

Results

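Glycolysis in the developing fly head was followed through 10 genes: 9 that encode enzymes of the pathway from glucose phosphorylation to the step before pyruvate, and *Ldh*, which encodes lactate dehydrogenase. They were *Hex-A*, *Pgi*, *Pfk*, *Ald1*, *Tpi*, *Gapdh1*, *Gapdh2*, *Pgk*, *Eno* and *Ldh*, chosen by name as a pathway, and each was found by its FlyBase identifier among the 13676 genes of the count table. RNA was sequenced from eye-antennal imaginal discs, the larval epithelia that form the eyes, antennae and head capsule, of wild-type *D. melanogaster* of the strain OregonR. Discs were dissected at 72h after egg laying (AEL, late L2), 96h (mid L3) and 120h (late L3), and each stage had 3 libraries, named A, B and C. Each library pooled 120 to 130 discs at 72h, 80 to 90 at 96h and 40 to 50 at 120h. The 72h discs came from male and female larvae and the 96h and 120h discs from females only, so that sex cannot be told apart from stage in a comparison with 72h. The labels name no treatment or transgene, and each value is an average over all cell types of the disc and of any tissue dissected with it. The libraries of 120h alone are labelled as a reanalysis of earlier samples, which likewise cannot be told apart from that stage.

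Glycolysis splits glucose into pyruvate and yields ATP and NADH on the way. Its upper part phosphorylates glucose and cleaves the hexose, and its lower part oxidizes the triose and passes phosphate to ADP. Lactate dehydrogenase converts pyruvate to lactate and returns the NADH to NAD+, so that glycolysis can go on without respiration. In *Drosophila* embryos and larvae, a program that depends on the estrogen-related receptor ERR raises these enzymes together with *Ldh* to support growth. In the BDGP6 annotation, *Hex-A* lies at X:9585675-9589813, *Pgi* at 2R:8910900-8914069, *Pfk* at 2R:10109740-10117457, *Ald1* at 3R:26254069-26261591, *Tpi* at 3R:30132981-30134599, *Pgk* at 2L:2746880-2753068 and *Eno* at 2L:1724768-1729636.

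Library totals were 17675472 to 37305763 counts, and 3 counts, taken as the floor of detection, equalled 0.0738 to 0.148 CPM. CPM are read counts per gene, scaled to a common library size with edgeR's TMM method. All 10 members lay far above the floor, at 26.1 CPM or more in every library, and counting alone gave an error of 4.96% to 7.03% at 10 CPM. These floors and errors cover counting only. The 72h replicates A and B differed by no more than sampling noise (chi-square of 1.02 per gene, against 36.2 to 488 for other pairs of 1 stage). They were counted as 1 sample, which left n = 2 at 72h and n = 3 at the other stages. In a mean ± SD of that stage, A and B enter as their mean. Of 11 genes that mark the disc, 9 passed the test as higher at 96h than at 72h, beside 19.4% of all genes tested. At 72h the weakest of them, *gl*, had 1.32 to 1.72 CPM. Both *gl* and *ss* passed the filter on low counts through their levels at 96h, so that their calls followed from the filter.

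The 10 members together took 0.437% to 0.547% of all counts at 72h, 0.252% to 0.336% at 96h and 0.231% to 0.325% at 120h. Summed over the members, this was 5961 to 6248 CPM at 72h, 2292 to 3084 CPM at 96h and 2019 to 2761 CPM at 120h. The 72h libraries thus stood above those of both later stages, which overlapped each other.

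**Figure D1:**
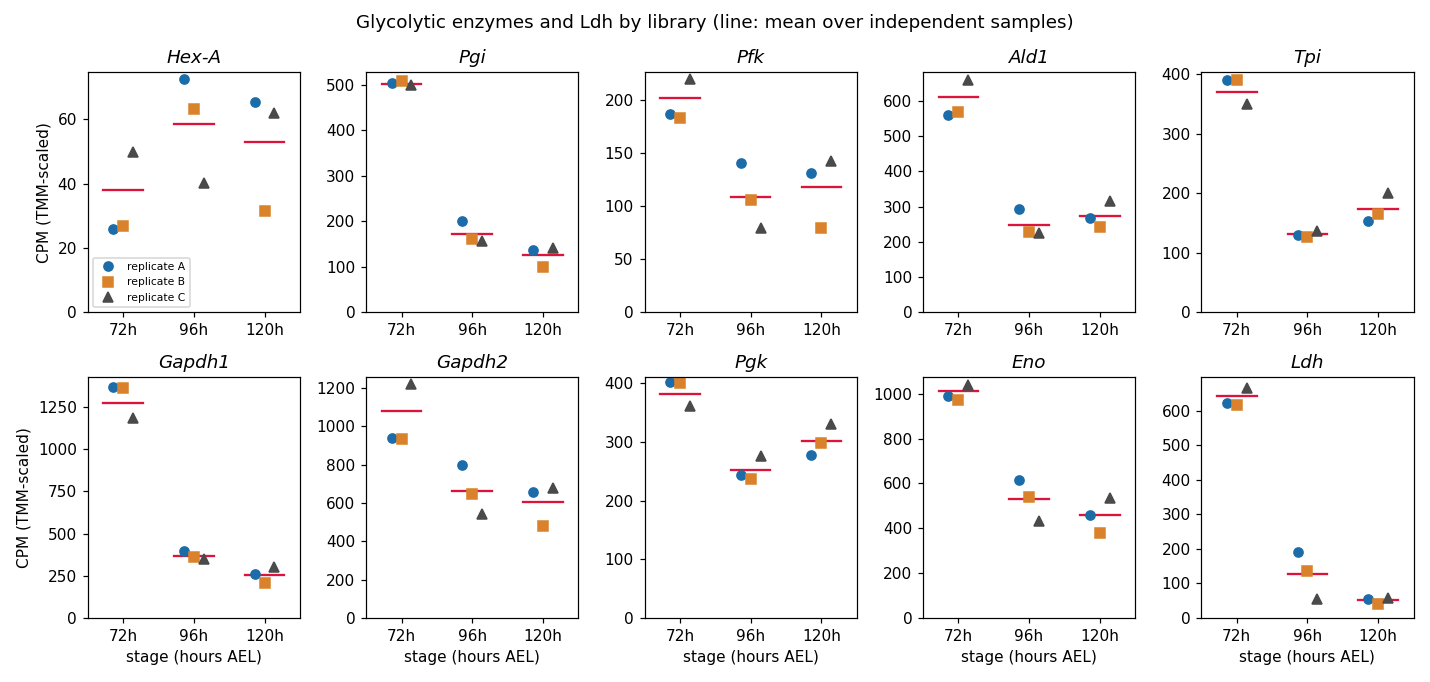
CPM of each member (vertical axes, starting at 0, with a separate scale per gene) in the libraries of 72h, 96h and 120h. Circles, squares and triangles are replicates A, B and C, and red lines are the mean over independent samples. Every member except Hex-A was higher in all 3 libraries of 72h than in any library of 96h.

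The first question was how the pathway changed from the late L2 to the mid L3 disc. At 96h, 8 of the 10 members were significantly lower than at 72h in edgeR's quasi-likelihood test (two-sided, Benjamini-Hochberg adjusted p under 0.05), and 0 were higher. SE denotes the standard error of a log2 fold change. Over all 8845 genes tested, 42.4% were called, 23.0% as lower and 19.4% as higher. The split of calls over all genes moved with the scaling, with 1712 higher and 2035 lower under TMM, 3178 higher and 1272 lower under library size alone, and 1229 higher and 2362 lower with a length offset described further on. The median log2 fold change of the members was −1.17, beside −0.04 for all genes tested. For 9 members the libraries of both stages did not overlap, with all of 96h lower, as held for 34.8% of all genes (36.5% were higher without overlap). Since discs were sequenced whole, fewer cells that express a gene and less RNA per cell cannot be told apart here.

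Among the upper enzymes, *Pgi*, *Pfk* and *Ald1* fell. *Pgi* (phosphoglucose isomerase, which turns glucose 6-phosphate into fructose 6-phosphate) had 202, 161 and 156 CPM at 96h in replicates A, B and C, against 504, 508 and 499 CPM at 72h. This was a log2 fold change of −1.59 (SE 0.19, edgeR adjusted p = 0.00654), a 3.01-fold lower level. *Pfk* (phosphofructokinase, the committed step of glycolysis) had 140, 106 and 79.7 CPM at 96h, against 187, 183 and 219 CPM at 72h. Its log2 fold change was −0.95 (SE 0.26, edgeR adjusted p = 0.0398). *Ald1* (aldolase, which cleaves the hexose into trioses) had 294, 229 and 224 CPM, against 561, 568 and 661 CPM at 72h, with a log2 fold change of −1.35 (SE 0.20, edgeR adjusted p = 0.0118). *Hex-A* (hexokinase, which phosphorylates glucose at entry) was the exception. It had 72.5, 63.1 and 40.2 CPM at 96h, against 26.1, 26.8 and 49.8 CPM at 72h, so that the stages overlapped, and its log2 fold change of 0.57 (SE 0.37) did not pass the test (adjusted p = 0.244 from edgeR).

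In the lower part, *Tpi*, *Gapdh1*, *Pgk* and *Eno* fell. *Tpi* (triose phosphate isomerase, which interconverts the trioses) was even among replicates, with 129, 126 and 137 CPM at 96h, against 390, 389 and 349 CPM at 72h, a log2 fold change of −1.55 (SE 0.16, edgeR adjusted p = 0.00499). *Pgk* (phosphoglycerate kinase, the first step that makes ATP) had 244, 237 and 276 CPM, against 402, 400 and 361 CPM at 72h. It moved least among the called members, with a log2 fold change of −0.64 (SE 0.18, edgeR adjusted p = 0.0402). *Eno* (enolase, which makes phosphoenolpyruvate) had 615, 540 and 434 CPM, against 992, 973 and 1040 CPM at 72h, a log2 fold change of −0.99 (SE 0.20, edgeR adjusted p = 0.0220). Both paralogs of glyceraldehyde 3-phosphate dehydrogenase, *Gapdh1* and *Gapdh2*, are described together further on.

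*Ldh* (FBgn0001258, 3L:6259105-6262694, minus strand, BDGP6 annotation) had the largest change of the members and, relative to its mean, the widest spread at 96h. It had 192, 136 and 55.1 CPM in replicates A, B and C at 96h, against 624, 617 and 666 CPM at 72h. The level in 96h replicate C was thus within the range of 120h (39.7 to 58.3 CPM), whereas replicates A and B lay above it. The log2 fold change was −2.39 (SE 0.51, edgeR adjusted p = 0.0231), a 5.25-fold lower level at 96h.

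Calls over the whole table, the members included, depended on single libraries. Without 96h replicate B, 2 of the 8 remained, *Gapdh1* (adjusted p = 0.0459 from edgeR) and *Tpi* (adjusted p = 0.0492), and without 72h replicate C, which leaves 1 sample at 72h, 5 members were called. Over all genes, 7.05% were called without 96h replicate B and 36.1% without 72h replicate C, against 42.4% with all libraries. *Pgk* was also not called without 96h replicate A (adjusted p = 0.114 from edgeR), nor *Pfk* without 96h replicate C (adjusted p = 0.0617). Both also lost their calls with all libraries when low counts were not filtered (adjusted p = 0.0608 for *Pgk* and 0.0515 for *Pfk* from edgeR). The same held with library size alone and with the replicate letter as a block (adjusted p = 0.0565 to 0.524 from edgeR). The direction of each of the 8 was the same in the fits without 96h replicate B or 72h replicate C.

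**Figure D2:**
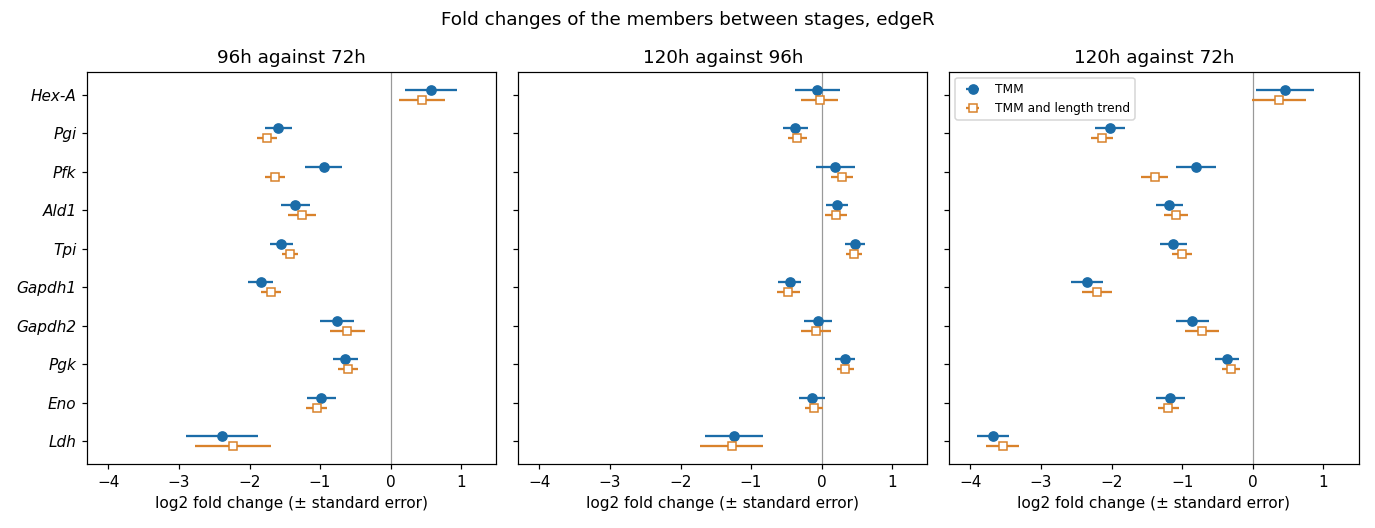
Log2 fold changes of the 10 members from edgeR (horizontal axes, the later stage over the earlier) for the 3 pairs of stages, with bars of 1 standard error. Filled circles are scaled by TMM, and open squares also have the length trend of each library taken out. The falls lie in the comparisons with 72h, and Pfk is the member that the length trend moved most.

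Libraries differed in how strongly counts rose or fell with coding sequence length. The Spearman correlation of length with the log2 CPM of a sample relative to the mean of all samples, over 9124 genes, was −0.48 and −0.38 for the 2 samples of 72h, and 0.54, 0.36 and −0.17 for replicates A, B and C of 96h. At 120h it was 0.44, −0.03 and 0.34. The coding sequences of the members were 999 to 1677 bp long, apart from *Pfk* with 2853 bp. With the length trend of each library as an offset, 8 members were again lower at 96h, where 26.7% of all genes were lower and 13.9% higher. The log2 fold change of *Pfk* became −1.64 (adjusted p = 0.00327 from edgeR), and those of the other 9 members moved by less than the standard error of the unadjusted value.

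From mid to late L3, none of the 10 members passed the test in either direction (0 higher and 0 lower at 120h), where 14.7% of 8201 genes did (6.30% lower and 8.39% higher). At an unadjusted p under 0.05 in edgeR, 2 members were lower, *Ldh* and *Gapdh1*, and 1 was higher, *Tpi*. DESeq2, the tool named in the study's methods, called these 3 genes in the same directions, where it called 22.8% of all genes. The median log2 fold change of the members was −0.06, beside 0.01 for all genes tested.

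*Ldh* had 54.3, 39.7 and 58.3 CPM at 120h, against 192, 136 and 55.1 CPM at 96h, and the stages overlapped through 96h replicate C. Its log2 fold change was −1.24 (SE 0.42, edgeR adjusted p = 0.106). Without that library it was −1.59 (adjusted p = 0.00714 from edgeR). *Ldh* was not called with any other library left out (adjusted p = 0.206 to 0.268 from edgeR), nor with the length offset (adjusted p = 0.0926). *Tpi* had 153, 165 and 201 CPM at 120h, all above the 129, 126 and 137 CPM of 96h, with a log2 fold change of 0.47 (SE 0.14, edgeR adjusted p = 0.0702). *Pgk* likewise had all its libraries of 120h (277, 298 and 331 CPM) above those of 96h (244, 237 and 276 CPM), at a log2 fold change of 0.33 (SE 0.14, adjusted p = 0.192). *Pgi* lay the other way, with 138, 99.5 and 141 CPM at 120h, against 202, 161 and 156 CPM at 96h, and a log2 fold change of −0.38 (SE 0.18, adjusted p = 0.232). Groups without overlap and in the lower direction were found for 18.6% of all genes, and in the higher direction for 14.7%. With the length offset, *Tpi* was called higher (adjusted p = 0.0323 from edgeR) and 0 members lower, where 10.2% of all genes were higher and 10.1% lower. The remaining *Hex-A*, *Pfk*, *Ald1*, *Gapdh2* and *Eno* overlapped between the stages, with log2 fold changes of −0.13 to 0.22.

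Over the whole series, from 72h to 120h, 7 of the 10 members were lower in edgeR, in a comparison where 52.9% of 9125 genes were called, 28.9% as lower and 24.0% as higher (2187 higher and 2641 lower, but 4085 higher and 1668 lower when scaled by library size alone). For 9 members all libraries of 120h lay below those of 72h, as held for 37.1% of all genes (36.4% were higher without overlap). This comparison shares its 72h samples with the first comparison and its 120h libraries with the second. *Ldh* had the largest net change, with a log2 fold change of −3.69 (SE 0.23, edgeR adjusted p = 4.49e-04), 12.9-fold lower at 120h. It was followed by *Gapdh1*, 5.09-fold lower, and *Pgi*, 4.05-fold lower. *Eno*, *Ald1* and *Tpi* lay between 2.18-fold and 2.27-fold lower, and *Gapdh2* was 1.81-fold lower (adjusted p = 0.0293 from edgeR). With the length offset 7 members were again lower, *Pfk* in place of *Gapdh2*, where 33.2% of all genes were lower and 20.5% higher. *Gapdh2* lost its call with the length offset (adjusted p = 0.0591) and without 72h replicate C (adjusted p = 0.118), 120h replicate A (adjusted p = 0.0717) or 120h replicate C (adjusted p = 0.0918). *Pfk* (−0.80, adjusted p = 0.0598 from edgeR), *Pgk* (−0.36, adjusted p = 0.132) and *Hex-A* (0.46, adjusted p = 0.376) were not called.

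The paralogs *Gapdh1* and *Gapdh2* were compared within each library, where the scaling of the libraries cancels. Both encode the enzyme that oxidizes glyceraldehyde 3-phosphate and makes NADH. *Gapdh1* (FBgn0001091) lies on 2R:7791901-7793380, minus strand, and *Gapdh2* (FBgn0001092) on X:15868145-15869661, plus strand (BDGP6 annotation). Their mapped coding sequences had the same length, 999 bp, so their counts can be set side by side. Reads that match both paralogs equally well would be placed on 1 of them by the mapping, and how many did so is not known here.

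*Gapdh1* had 397, 359 and 350 CPM at 96h in replicates A, B and C, against 1367, 1365 and 1185 CPM at 72h. Its log2 fold change was −1.84 (SE 0.18, edgeR adjusted p = 0.00420), a 3.59-fold lower level. *Gapdh2* had 799, 646 and 540 CPM at 96h, against 941, 932 and 1218 CPM at 72h, with all libraries of 96h below those of 72h. Its log2 fold change of −0.76 (SE 0.24) missed the threshold (adjusted p = 0.0535 from edgeR), and passed it with DESeq2 (adjusted p = 0.00962), with 72h replicates A and B kept apart (adjusted p = 0.0300 from edgeR) and with all stages in 1 fit (adjusted p = 0.0224 from edgeR). It did not pass with library size alone (−0.29, adjusted p = 0.422 from edgeR), with the length offset (adjusted p = 0.102), with the replicate block (adjusted p = 0.101) or with any 1 library left out (adjusted p = 0.0534 to 0.219). At 120h, *Gapdh1* had 263, 205 and 299 CPM and *Gapdh2* 658, 480 and 676 CPM. Against 96h this was a log2 fold change of −0.45 (SE 0.17, edgeR adjusted p = 0.134) for *Gapdh1*, without overlap of the stages, and of −0.05 (SE 0.20, adjusted p = 0.889) for *Gapdh2*.

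The share of *Gapdh1* was lower in the later stages. Of the counts of both paralogs, *Gapdh1* took 59.2%, 59.4% and 49.3% in the 72h libraries A, B and C, 33.2%, 35.7% and 39.4% at 96h, and 28.5%, 30.0% and 30.7% at 120h. The libraries of the 3 stages did not overlap in this share. The mean log2 ratio of *Gapdh1* to *Gapdh2* was 0.25 ± 0.41 (SD, n = 2) at 72h, −0.83 ± 0.19 (SD, n = 3) at 96h and −1.24 ± 0.08 (SD, n = 3) at 120h. The ratio differed between the stages in an exact permutation test over the 560 assignments of the 8 samples to 3 stages (p = 0.00357, the smallest these groups allow). Between pairs of stages, the ratio was 2.11-fold lower at 96h than at 72h and 1.33-fold lower at 120h than at 96h. Each pair gave p = 0.1 in the exact two-sided permutation test, which is the smallest p that groups of these sizes can give, so that no pair could pass on its own. In 72h replicate C, both paralogs had nearly equal counts (a log2 ratio of −0.04), whereas the merged replicates A and B set the *Gapdh1* lead. Per the paper's methods, 72h replicate C alone missed the read quality of the other libraries, with an undetermined base in part of its reads. Its effect on the ratio was not tested. Without replicate C, the difference between 96h and 72h in the log2 ratio was −1.37, beside −1.08 with it.

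**Figure D3:**
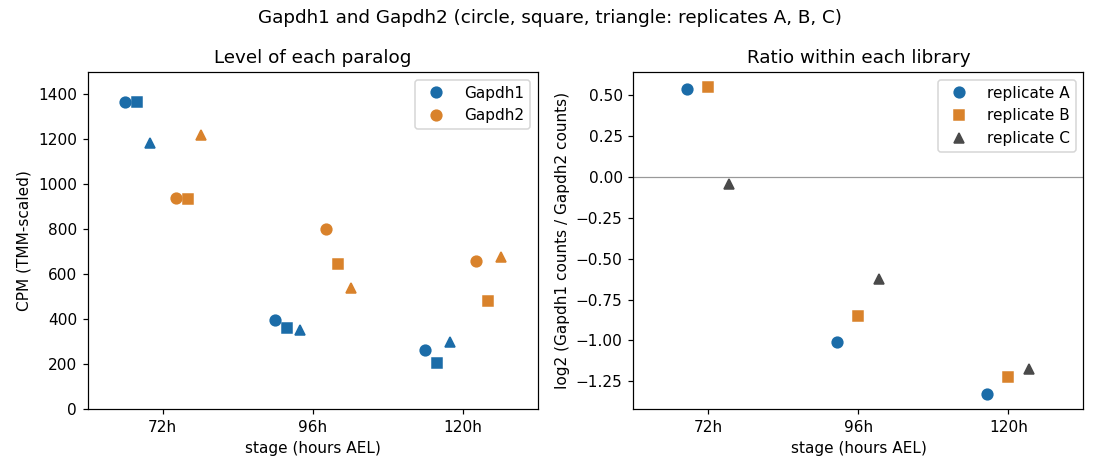
Left, CPM of Gapdh1 and Gapdh2 (vertical axis from 0) in each library by stage. Right, log2 ratio of Gapdh1 to Gapdh2 counts in each library, where 0 means equal counts. The ratio lay between −0.04 and 0.55 at 72h, between −1.01 and −0.62 at 96h and between −1.33 and −1.18 at 120h.

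Levels of different genes were compared per kilobase of coding sequence, as mean CPM per kb. At 72h the order was *Gapdh1* (1277), *Gapdh2* (1078), *Eno* (673), *Ldh* (644), *Ald1* (561), *Tpi* (353), *Pgk* (305), *Pgi* (299.6), *Pfk* (70.8) and *Hex-A* (23.4). The libraries of *Ldh* overlapped with those of *Eno* but not with those of *Ald1*. *Gapdh1* and *Gapdh2* also overlapped, as did *Pgk* and *Pgi*, and the other neighbours in the order did not. At 96h, *Gapdh2* led (662 ± 130 CPM per kb, SD, n = 3), ahead of *Gapdh1* (369 ± 25.0) and *Eno* (352 ± 60.7), which overlapped. *Ldh* had 128 ± 68.8 CPM per kb and overlapped with both neighbours, *Pgk* (202) and *Tpi* (125). At 120h, *Gapdh2* still led (605 ± 108 CPM per kb), without overlap with the next gene, *Eno* (305 ± 51.9). *Ldh* (50.8 ± 9.80 CPM per kb) then stood below *Pgi* (75.3 ± 13.9), next to *Pfk* (41.2 ± 11.9) and *Hex-A* (32.6 ± 11.4). *Ldh* overlapped with *Pfk*, and *Pfk* with *Hex-A*. *Pfk* and *Hex-A*, the kinases at the entry of the pathway, were the lowest members at every stage.

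Genes of muscle moved with stage in the same direction as most members, and their part in the falls was not tested. The sum of 11 muscle genes, among them *Mhc*, *Mlc1*, *Mlc2* and *Act57B*, was 2584 to 9333 CPM at 96h, against 16584 to 22040 CPM at 72h. Of these genes 6 were called lower at 96h, beside 23.0% of all genes tested. Within 96h the sum was 9333, 4304 and 2584 CPM in replicates A, B and C, the same order in which *Ldh*, *Hex-A*, *Pgi*, *Pfk*, *Ald1*, *Gapdh1*, *Gapdh2* and *Eno* lay, while *Tpi* and *Pgk* were highest in replicate C. The length trend of these libraries had that order too (0.54, 0.36 and −0.17). Within 72h the muscle sum was highest in replicate C (22040 CPM). There *Gapdh1*, *Pgi*, *Tpi* and *Pgk* were at their lowest of that stage, and the other members at their highest. At 120h the muscle sum was 491 to 1021 CPM. From 96h to 120h, 8 of the 11 genes were called lower, where 0 of the 10 members and 6.30% of all genes were. All 11 were detected in every library. Lists of other tissues were mixed. At 96h against 72h, 1 of 6 tested fat body genes, *apolpp*, was lower and 3 were higher, beside 23.0% and 19.4% of all genes. Of the 3, *Lsp2* and *Fbp2* had at most 0.826 and 0.953 CPM at 72h. They passed the filter on low counts through their levels at 96h, so that their calls followed from the filter. Of 6 hemocyte genes 0 were called, all with log2 fold changes below 0. Fat body genes summed to 5807 to 6356 CPM at 72h, 2050 to 6979 CPM at 96h and 142 to 4893 CPM at 120h. Hemocyte genes summed to 329 to 1391, 71.4 to 345 and 193 to 1120 CPM at these stages, and salivary gland genes to at most 4.81 CPM before 120h and 217 to 266 CPM at that stage. The tracheal gene *trh* had 1.47 to 2.64 CPM at 72h, 0.868 to 1.38 CPM at 96h and 0.148 to 1.11 CPM at 120h, too low to be tested.

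**Figure D4:**
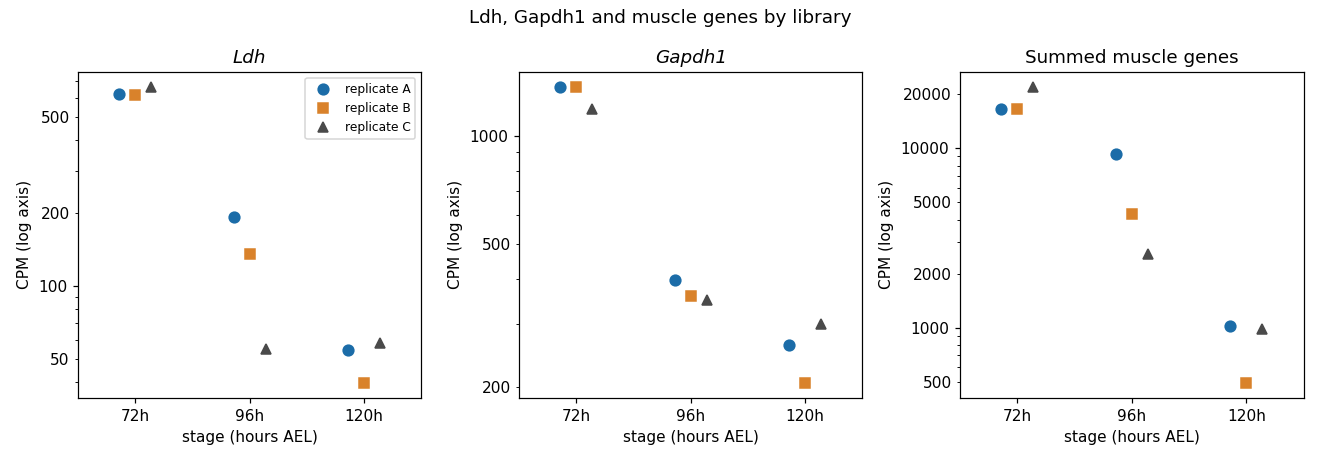
CPM of Ldh, of Gapdh1 and of 11 summed muscle genes (vertical log axes, each with its own range) in every library by stage. Between 96h and 120h the muscle sum went below its earlier range in every library, whereas Ldh in 96h replicate C (55.1 CPM) already lay at the level of 120h.

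Other genes of the pathway were then examined in lists by their place in sugar metabolism. Of 15 further glycolytic genes and isozymes found in the table, 5 passed the filter on low counts for the first comparison. Of these 4 were called lower, beside 23.0% of all genes tested. However, *Hex-C* and *CG7059* were not among the genes tested at 120h against 96h. They passed here through their levels at 72h, so that their calls followed from the filter. *Pglym78* (phosphoglycerate mutase, which stands between *Pgk* and *Eno*) had 115, 118 and 134 CPM at 96h, against 492, 509 and 437 CPM at 72h, a log2 fold change of −1.99 (SE 0.18, edgeR adjusted p = 0.00363). *Hex-C*, a second hexokinase, was nearly lost, with 0.197, 0.968 and 1.08 CPM at 96h, against 40.6, 38.9 and 51.9 CPM at 72h (log2 fold change −6.01, SE 0.73, edgeR adjusted p = 0.00700). At 72h, where *Hex-A* had 26.1, 26.8 and 49.8 CPM, *Hex-C* was at a like level, and at 120h *Hex-C* had at most 0.227 CPM, against 31.7 to 65.4 CPM of *Hex-A*. The phosphatase *fbp*, which acts against phosphofructokinase in gluconeogenesis, had a log2 fold change of −1.34 (SE 0.29, edgeR adjusted p = 0.0235). The 10 isozymes that did not pass the filter, among them *Hex-t1*, *Ald2* and *Pglym87*, had at most 3.41 CPM in any library.

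Genes that take up, store or release sugar, or make the blood sugar, were lower at 96h in most cases. Of 10 such genes, 8 were lower and 1 was higher at 96h, beside 23.0% and 19.4% of all genes tested. Among the 8, *Tret1-2* was not tested at 120h against 96h. It passed the filter here through its levels at 72h (4.17 to 4.90 CPM), so that its call followed from the filter. *Tret1-1*, a trehalose transporter, had 10.6, 13.3 and 15.9 CPM at 96h, against 87.1, 81.6 and 78.9 CPM at 72h, a log2 fold change of −2.67 (SE 0.22, edgeR adjusted p = 0.00277). *Pgm1* (phosphoglucomutase) and *GlyP* (glycogen phosphorylase), which feed glycogen into the pathway, had log2 fold changes of −2.25 and −1.12. *Tps1* (trehalose phosphate synthase), the enzyme that makes the blood sugar of the fly, had one of −3.31. *Glut1*, a glucose transporter, moved against the rest. It had 6.71, 6.38 and 9.83 CPM at 96h, against 2.43, 2.29 and 2.15 CPM at 72h, and 27.3, 34.5 and 30.6 CPM at 120h. Both steps passed the test, with log2 fold changes of 1.71 (SE 0.39, edgeR adjusted p = 0.0263) and 2.08 (SE 0.23, adjusted p = 0.00247), but the first did not with the length offset (0.79, adjusted p = 0.239). For the first step *Glut1* passed the filter on low counts only through its levels at 96h, so that this call followed from the filter.

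**Figure D5:**
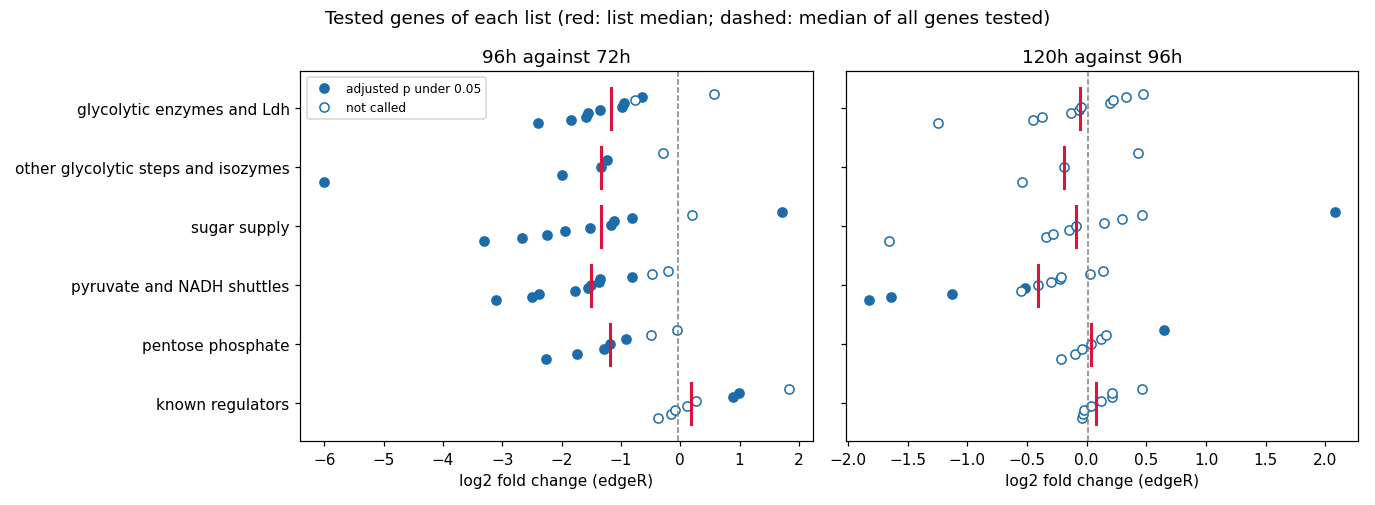
Log2 fold changes from edgeR (horizontal axes, the later stage over the earlier) of the tested genes of 6 lists, 1 point per gene, filled where the adjusted p was under 0.05. Red bars are list medians and dashed lines the median of all genes tested. In the first comparison the medians of 5 lists lay at −1.17 or lower, and that of the known regulators at 0.19.

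At the exit of glycolysis, 9 of 11 genes of pyruvate use and NADH shuttles were lower at 96h, and 0 were higher. Over all genes tested, 23.0% were lower and 19.4% higher in this comparison. *Gpdh1* and *Gpo1*, which pass NADH electrons to the mitochondria as the glycerol 3-phosphate shuttle, fell in both steps. *Gpdh1* had 53.0, 55.0 and 66.7 CPM at 96h, against 618, 604 and 352 CPM at 72h (log2 fold change −3.10, SE 0.30, edgeR adjusted p = 0.00433), and 27.1, 22.4 and 26.6 CPM at 120h. The step from 96h to 120h gave −1.13 (SE 0.15, edgeR adjusted p = 0.00496) for *Gpdh1* and −1.82 (SE 0.12, adjusted p = 7.81e-04) for *Gpo1*. They were among 4 genes of this list that were lower at 120h than at 96h, with *PCB* (pyruvate carboxylase) and *Pdhb* (a subunit of pyruvate dehydrogenase). Of all genes tested there, 6.30% were lower. *Mpc1*, which carries pyruvate into mitochondria, had a log2 fold change of −2.49 (SE 0.27, edgeR adjusted p = 0.00536) at 96h against 72h. The kinase *Pdk* and the phosphatase *Pdp*, which switch pyruvate dehydrogenase off and on, did not pass the test, with log2 fold changes of −0.48 and −0.21.

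The pentose phosphate pathway branches off at glucose 6-phosphate to make NADPH and ribose. Of 7 of its genes tested, 5 were lower at 96h and 0 were higher, beside 23.0% and 19.4% of all genes. *Pgd* (6-phosphogluconate dehydrogenase) had 102, 122 and 118 CPM, against 579, 584 and 469 CPM at 72h, a log2 fold change of −2.26 (SE 0.20, edgeR adjusted p = 0.00320). *Zw* (glucose 6-phosphate dehydrogenase), the entry step, had a log2 fold change of −1.73 at 96h against 72h (SE 0.14, edgeR adjusted p = 0.00285). It was the 1 gene of the list called higher at 120h against 96h (0.65, SE 0.15, edgeR adjusted p = 0.0296), beside 8.39% of all genes tested. *Zw* had 27.2, 25.8 and 33.8 CPM at 120h, against 17.5, 20.6 and 20.2 CPM at 96h. No gene of the list was called higher when 96h replicate A or B or 120h replicate A or C was left out, or when low counts were not filtered.

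Among 8 genes known to regulate glycolysis in *Drosophila*, 0 were lower and 2 were higher at 96h, beside 23.0% and 19.4% of all genes. *ERR* had 18.8, 22.4 and 26.3 CPM at 96h, against 21.5, 22.5 and 18.1 CPM at 72h, and its stages overlapped (log2 fold change 0.12, SE 0.23, edgeR adjusted p = 0.694). At 120h it had 28.4, 33.0 and 27.1 CPM. The genes called higher, *sima* (the hypoxia-inducible factor alpha subunit) and its partner *tgo*, had log2 fold changes of 0.99 and 0.90. With the length offset these were −0.02 and 0.58 and were not called, so the direction of *sima* turned with this setting. *Mondo*, another gene of the list, was called lower with the offset (−0.96, adjusted p = 0.0164 from edgeR), where 26.7% of all genes were lower. Without the offset its log2 fold change was −0.15 (adjusted p = 0.426 from edgeR). *Myc* had 77.5, 48.5 and 36.8 CPM at 96h, against 5.11, 5.41 and 24.2 CPM at 72h, and did not pass the test (log2 fold change 1.84, SE 0.72, edgeR adjusted p = 0.0890).

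The study's authors had grouped the genes by their profile over these same libraries into co-expression clusters, numbered here as deposited. *Gapdh1* and *Ldh* were in cluster 2 (656 genes), with *Pglym78*, *Gpdh1*, *Gpo1*, *Mpc1*, *Tret1-1*, *Pgm1*, *Tps1* and *Pgd*. The muscle genes *Mlc1*, *Mlc2*, *Act57B*, *Tm2* and *up* and the fat body gene *apolpp* were in cluster 2 as well. *Pgi*, *Ald1* and *Tpi* were in cluster 3 (519 genes), and *Pfk*, *Gapdh2*, *Pgk* and *Eno* in cluster 4 (876 genes). *Hex-A* was in cluster 7 (1274 genes), and *Glut1* in cluster 13 (316 genes). Thus the paralogs *Gapdh1* and *Gapdh2* had been placed apart.

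Over the 8 independent samples, the profile of *Hex-A* in log2 CPM was the least like the others, with Pearson correlations of −0.62 to 0.11 with the other 9 members, while the lowest value between any of the others was 0.52, between *Pgk* and *Ldh*. Among 9123 genes, those with the profile most like *Ldh* were *Nop56* (r = 0.997), FBgn0022288 (r = 0.995) and *uncNacbeta* (r = 0.994). Most like *Gapdh1* were *Got2* (r = 0.999), which encodes an aspartate aminotransferase, *NKCC* (r = 0.995), an ion cotransporter, and the member *Pgi* (r = 0.995). For *Gapdh2* they were *Atg9* (r = 0.985), *Cht7* (r = 0.982) and *CG8939* (r = 0.980). These values are descriptions over 8 points that share libraries and stages.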

How the data were processed

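Per the paper's methods, the authors mapped untrimmed single-end reads of 50 bases with Bowtie2 to 1 coding sequence per gene, the longest, and counted reads on it with SAMtools 0.1.19. The deposited values used here are these raw counts, not normalized, and the deposited coding sequence length. The authors' deposited cluster numbers were read as labels. Of 13676 genes, 13406 were named by identifier. *PyK* (pyruvate kinase) and 3 other list genes were not matched by identifier and were not analysed here. No gene overlapped a member in its coding exons. Positions belong to the BDGP6 annotation, a later build than that of the mapping. Sequences were not used here, so the motif search that had been planned was not run.

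Computations used R 4.3.3 with edgeR 4.0.16 and DESeq2 1.42.0, and Python 3.11.15 with matplotlib 3.10.9. Libraries of a stage with a chi-square per gene under 1.5 (genes with at least 20 counts) were summed. Genes were filtered after the HTSFilter method (100 thresholds from 1 to 200 normalized counts, loess span 0.3). Each pair of stages had its own edgeR quasi-likelihood fit, scaled by TMM, with adjustment over all genes tested. Standard errors are the absolute log2 fold change over the square root of F. log2 CPM used a prior count of 2. The length trend was a lowess fit (span 0.3) per library. The fit was tested on simulated data. P-values of the fits weigh a stage difference against the spread between these libraries. Those of the permutation tests rank the observed assignment of samples among all assignments. Members and lists were chosen with earlier results of these data known. Named genes were all members, genes of the lists, and the 3 genes most correlated with each of *Ldh*, *Gapdh1* and *Gapdh2*. Alternatives are given at the end.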

Additional observations from a re-analysis of the deposited data

How the results depend on the processing

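Scaling by library size in place of TMM put the all-gene median log2 fold change at 0.44 at 96h against 72h and at 0.58 at 120h against 72h. It left 5 and 3 members lower in these comparisons, where 1272 of 8845 and 1668 of 9125 genes were lower. It also turned *Pgk* at 120h against 72h (0.23). Uncalled values also turned at 120h against 96h: those of *Hex-A* and *Gapdh2* were 0.0015 and 0.0082 with library size, and with 1 library left out ranged over −0.26 to 0.20 and −0.16 to 0.090, above 0 without 96h replicate A or 120h replicate B. With 1 library other than 72h replicate C left out, 2 to 8 members were lower at 96h against 72h. The range was 0 to 1 at 120h against 96h and 6 to 8 at 120h against 72h, and 0 were higher. Over all genes, these fits called 7.05% to 43.7%, 6.79% to 16.9% and 27.6% to 54.4% in either direction, in the same order. At 120h against 96h, DESeq2 called 2 members lower and 1 higher, and the length offset 1 higher, *Tpi*. They called 22.8% and 20.3% of all genes in either direction. The cause of these shifts was not tested. With the replicate letter as a replicate block, 6 members were lower at 96h against 72h. At 120h against 96h 0 were lower, and 8 at 120h against 72h. Of all genes, 1862 of 9115, 386 of 8201 and 2948 of 9292 were lower in these fits. Same-lettered libraries deviated together at 120h against 96h with r of 0.15, 0.12 and 0.09, and at 96h against 72h with r of −0.42, 0.18 and −0.31, so that the letters were not taken as pairs. The stage difference of the *Gapdh1* to *Gapdh2* ratio passed the exact permutation test in every alternative run (p = 0.00357 to 0.019). A 72h group of 2 samples limits all comparisons with that stage.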
